A study of Mus musculus with 9 samples.

Results

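C/D box snoRNAs are short nucleolar RNAs, most of which are cut out of the introns of other genes. Each one carries a C box near its 5′ end and a D box near its 3′ end, on which the core proteins Fbl, Nop56, Nop58 and Nhp2l1 assemble, and most of them pair with ribosomal RNA and direct the methyltransferase Fbl to a ribose. Some, such as the U22 RNA encoded by Snord22, serve in the cutting of the ribosomal RNA precursor instead. The genes described here are the rows of the deposited gene table whose symbol starts with Snord and whose RPKM (reads on a gene scaled by its length and by the mapped reads of the library) was above 0 in at least 1 library, which gave 90 of the 24132 gene symbols. A further 7 Snord rows were at 0 in every library.

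The RNA came from mouse embryonic stem cells (ESCs) of a 129/B6 F1 hybrid strain, grown without feeders and with LIF, crosslinked with formaldehyde and used for RIPiT-seq, in which protein with its bound RNA is purified by FLAG and then by HA. WDR5 is a subunit of the MLL histone methyltransferase complex that can also bind RNA, and the design asks which RNAs come down with it. The empty vector line carried a lentivirus with no tagged WDR5, the WT line FLAG-HA tagged wild-type WDR5, and the F266A line FLAG-HA tagged WDR5 with a phenylalanine changed to alanine. Both tagged proteins were human WDR5. Every line gave 2 libraries after purification (IPs) and 1 library of unpurified RNA (input), 9 in all. All lines kept their own WDR5, the tagged lines were single isolated clones, and the F266A construct was described as shorter at its N-terminus. Nothing in the labels says whether the IPs numbered 1 and 2 came from separate cultures, so p-values measure the spread between these libraries, which may be technical.

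Estimated depth ran from 13400000 mapped reads in the empty vector IP2 to 50100000 in the empty vector input. Pou5f1, a defining ESC gene, was at 36.3 RPKM or more in every library, and the summed level of 6 fibroblast markers was 1.61 RPKM or less. The summed RPKM of 8 primitive endoderm markers was 45.4 in the F266A input and 56.6 in the F266A IP2, against 17.6 in the F266A IP1 and 17.95 to 25.1 in the other 6 libraries. Single markers differed from the sum in the F266A IP1. Gata4 (0.695 RPKM), Gata6 (0.0615), Dab2 (0.916) and Col4a1 (1.025) were above every WT and empty vector library there. Sox17, Foxa2, Lama1 and Sparc were not. More such cells and more of this RNA per cell cannot be told apart in bulk RNA. The part of this difference in the results on the F266A line was not tested, and values without that line are given where they change a call.

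Of the 90 genes, 56 were placed on mm9 by GENCODE M1, and the sequences of 6 that the results below turn on are given here. They comprise 5 of the 7 genes called higher in the IPs both before and after centring the libraries on their medians, and Snord49a, which lies beside Snord49b in the same host. Snord43 and Snord92 belong to the same 7 and were not placed. Sequences were read 5′ to 3′ from the coding strand of mm9 over the annotated span, with the C box letters TGATGA within the first 20 bases and the D box letters CTGA within the last 20 bases in capitals.
Snord22: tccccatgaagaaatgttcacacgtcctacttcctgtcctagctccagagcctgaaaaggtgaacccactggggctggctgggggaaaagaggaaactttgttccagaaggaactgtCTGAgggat
Snord49b: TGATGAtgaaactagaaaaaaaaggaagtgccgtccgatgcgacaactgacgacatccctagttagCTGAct
Snord49a: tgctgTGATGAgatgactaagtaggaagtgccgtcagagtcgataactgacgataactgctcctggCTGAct
Snord83b: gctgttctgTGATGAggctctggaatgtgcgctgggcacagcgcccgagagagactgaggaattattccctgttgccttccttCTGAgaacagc
Snord104: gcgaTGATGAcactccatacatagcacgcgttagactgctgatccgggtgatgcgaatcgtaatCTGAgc
Snord93: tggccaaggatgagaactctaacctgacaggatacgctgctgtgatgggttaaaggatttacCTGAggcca

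Snord22 lies at chr19:8800356-8800481 on the plus strand, inside an annotated exon of the noncoding host Snhg1. Snord49b, at chr11:62416581-62416652, and Snord49a, at chr11:62416952-62417023, both lie on the plus strand in introns of the noncoding host 2410006H16Rik. Snord83b lies at chr15:79908928-79909021 on the minus strand, in an intron of Rpl3, which encodes a protein of the large ribosomal subunit. Snord104, at chr11:106362307-106362376 on the plus strand, and Snord93, at chr5:23216809-23216879 on the minus strand, had no annotated host.

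The letters of the boxes were searched on the coding strand alone, and any overlap with other motifs was ignored. The D box letters stood in the last 20 bases of 55 of the 56 placed genes and the C box letters in the first 20 bases of 34, with both in 33 (58.9%). H/ACA box snoRNAs are the other main class of guide RNAs. They were pooled by name with Cajal body RNAs, and box types within this pool were not separated. Of its 41 placed genes 9.76% held both, and of 56 windows of the same lengths starting 200 bases upstream of each C/D box snoRNA gene, 0% did. Snord22 and Snord93 held the D box letters and not these exact C box letters. A match is a description of the letters, and the missing match in Snord22 says only that these letters are not in this window.

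Most C/D box snoRNA genes rested on very few reads. A RefSeq length was found for 66 of the 90, from 45 to 221 bases with a median of 68, and 1 read on a gene of 70 bases was worth 0.281 RPKM in the most deeply and 1.05 RPKM in the least deeply sequenced library. The RPKM had been built from covered bases, so a read that runs past the end of a gene counts in part. Over these 66 genes the mean per library was under 3 reads for 49, from 3 to 10 for 9 and at least 10 for 8, with a median of 1.69 reads. The mean RPKM was under 1 for 63 of the 90, from 1 to 3 for 18 and at least 3 for 9. In all, 28 of the 90 were above 0 in all 9 libraries.

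The 24 Snord116 copies among the 90, from an imprinted cluster of near-identical repeats, never exceeded 0.183 RPKM. All 24 stood at 0.183 RPKM in the WT input, 18 at 0.0169 RPKM in the empty vector input and 9 at 0.0233 RPKM in the WT IP1, and every one was at 0 in the other 6 libraries. Because copies share reads, these rows held only 4 distinct sets of values and are not 24 measurements. Snord64, a single-copy gene of the same imprinted region, was measured at 0.622 to 2.39 RPKM in the 9 libraries, and its IP and input values overlapped. The genes for U3, U8, U13 and U14 and the Snord107, Snord113, Snord114 and Snord115 genes were not among the 90, so they are not described here.

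The most abundant C/D box snoRNA genes were Snord49b, Snord43 and Snord83b, with mean levels of 14.5, 13.6 and 12.2 RPKM over the 9 libraries. Snord104 (9.24), Snord17 (8.90), Snord2 (6.57), Snord89 (5.07), Snord22 (4.63) and Snord32a (3.14) followed, and neighbours in this order overlapped in their library values. The 8 genes with a mean of at least 10 reads took between 51.2% and 63.1% of the summed RPKM of all 90 in each library. That sum was 73.9 to 94.7 RPKM in the 3 inputs and 131 to 177 RPKM in the 6 IPs, without overlap. Of all single genes tested, 42.2% likewise had all 6 IPs above all 3 inputs. The sum in the WT input counts the 24 Snord116 rows, which share reads, at 0.183 RPKM each. This raises its sum and lowers the share of the 8 genes in it.

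**Figure D1:**
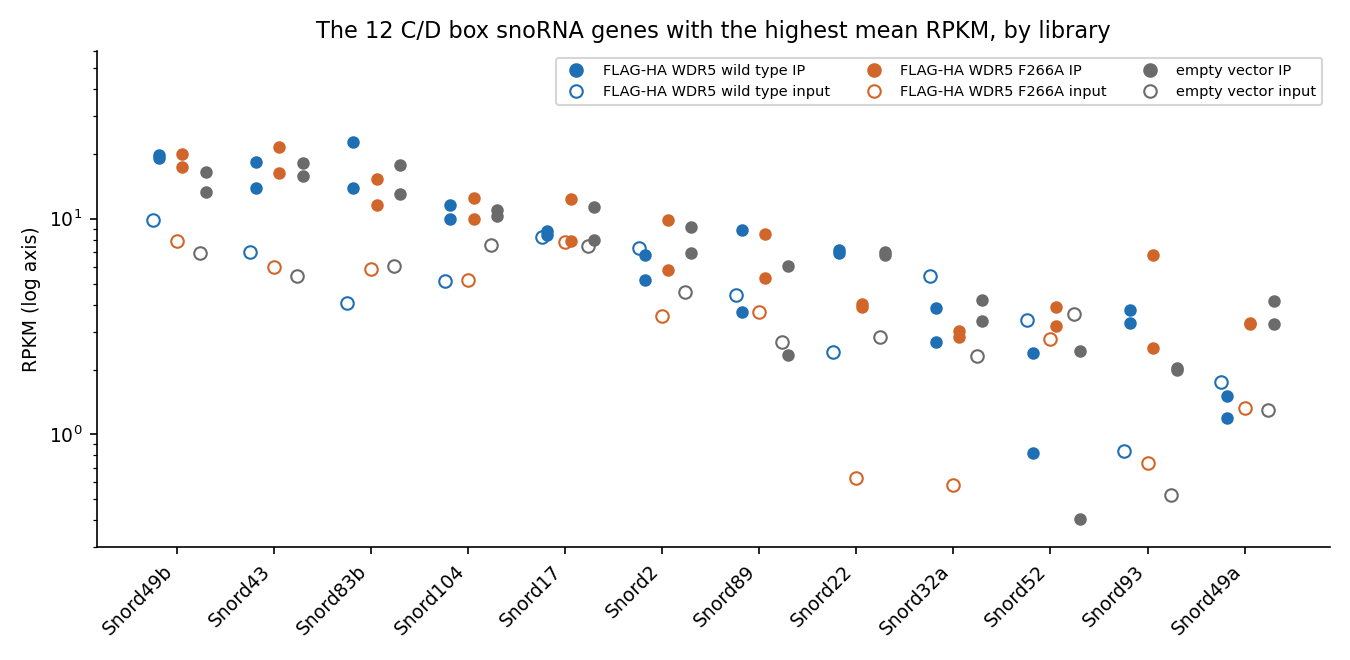
RPKM of the 12 C/D box snoRNA genes with the highest mean, on a log axis, with 1 point per library. Open points are inputs and filled points are IPs of the WT (blue), F266A (orange) and empty vector (grey) lines. For Snord49b, Snord43, Snord83b, Snord104, Snord22 and Snord93 all 6 IPs lie above all 3 inputs, in the empty vector line too. The same holds for 42.2% of all genes tested.

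IPs were first set against inputs over all lines. Of the 46 C/D box snoRNA genes that reached an RPKM of 1 in 2 or more libraries, 15 (32.6%) rose and 1 fell in the IPs (limma on log2(RPKM + 1) with line as a covariate, Benjamini-Hochberg adjusted p under 0.05), and the other 44 of the 90 were too low to be tested. Over all 9787 genes tested, 63.8% were called higher and 0.511% lower. The median log2 difference was 0.42 over the 46 genes and 0.30 over all genes. When each library was centred on its median, which removes that common shift, 7 of the 46 (15.2%) were higher and 0 lower, against 4.67% of all genes higher and 4.32% lower. Those 7 were Snord22, Snord43, Snord83b, Snord49b, Snord104, Snord93 and Snord92. The filter counted IPs and inputs alike, so a gene could pass through IPs alone. Among the genes called, this held for Snord93, Snord35b and Snord16a, whose inputs were all under 1 RPKM. Snord92, Snord73a, Snord100, Snord33 and Snord34 reached 1 RPKM in a single input and needed an IP to pass. For these genes the filter itself favours a rise. Without the F266A input, 9 of the 46 were higher on the uncentred scale.

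Snord22 is the gene of U22, which is needed to release the small ribosomal subunit RNA from its precursor. It was measured at 2.41 RPKM in the WT input and 6.95 and 7.19 RPKM in the WT IPs, at 0.627 RPKM in the F266A input and 4.02 and 3.90 RPKM in the F266A IPs, and at 2.83 RPKM in the empty vector input and 7.004 and 6.76 RPKM in the empty vector IPs. All 6 IPs were above all 3 inputs, and the F266A line was lowest in both fractions. The mean was 5.97 ± 1.56 RPKM in the IPs (SD, n = 6) and 1.96 ± 1.17 RPKM in the inputs (SD, n = 3), and the log2 difference was 1.30 ± 0.10 (SE, adjusted p = 4.9e-05 by limma). Reads of U22 cannot be told from those of the Snhg1 exon that holds Snord22.

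Snord43, which encodes the methylation guide U43, was at 7.01, 5.97 and 5.40 RPKM in the WT, F266A and empty vector inputs. Its IPs were at 13.9 and 18.3 RPKM in WT, 21.6 and 16.2 RPKM in F266A and 15.8 and 18.2 RPKM in the empty vector line. Every IP was above every input by a wide gap, with a mean of 17.3 ± 2.63 RPKM (SD, n = 6) against 6.13 ± 0.81 RPKM (SD, n = 3). The log2 difference was 1.36 ± 0.13 (SE, adjusted p = 0.00014 by limma).

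Snord83b, from an intron of Rpl3, was at 4.09 RPKM in the WT input, 5.86 RPKM in the F266A input and 6.05 RPKM in the empty vector input. The IPs held 22.7 and 13.9 RPKM in WT, 15.2 and 11.5 RPKM in F266A, and 17.8 and 13.05 RPKM in the empty vector line. The WT IP1 was the highest, while the WT IP2 lay among the IPs of the other lines. Its log2 difference of 1.38 ± 0.19 (SE, adjusted p = 0.000576 by limma) was the largest of the 46.

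Snord49b and Snord49a lie in introns of the same noncoding host, and the difference between them was not tested. Snord49b was at 9.87, 7.84 and 6.93 RPKM in the WT, F266A and empty vector inputs, and at 19.0 and 19.7 RPKM, 19.96 and 17.4 RPKM, and 16.5 and 13.3 RPKM in the IPs of these lines. Every IP was above every input (log2 difference 1.02 ± 0.09 SE, adjusted p = 0.00012 by limma). Snord49a was at 1.75 RPKM in the WT input and 1.19 and 1.5005 RPKM in the WT IPs, at 1.33 RPKM in the F266A input and 3.26 and 3.28 RPKM in its IPs, and at 1.30 RPKM in the empty vector input and 3.25 and 4.17 RPKM in its IPs. Both WT IPs of Snord49a were thus below their input, and the IPs of both other lines above theirs, on a mean of 3.82 reads per library.

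Snord104 was at 5.16, 5.21 and 7.57 RPKM in the WT, F266A and empty vector inputs and at 9.91 to 12.5 RPKM in the 6 IPs (log2 difference 0.78 ± 0.11 SE, adjusted p = 0.000693 by limma). Its groups did not overlap. Snord93 was at 0.526 to 0.842 RPKM in the inputs and 1.99 to 6.78 RPKM in the IPs, also without overlap, on a mean of 2.84 reads. Snord92 rose by less (0.68 ± 0.09 SE, adjusted p = 0.000475 by limma), and its range of 1.11 to 2.66 RPKM in the IPs overlapped that of 0.288 to 1.19 RPKM in the inputs, since the F266A input was above both empty vector IPs.

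The other 8 genes that rose before centring were Snord35b, Snord73a, Snord100, Snord33, Snord96a, Snord34, Snord49a and Snord16a, with log2 differences from 0.42 to 1.05 and means of 1.66 to 4.53 reads. Their hosts include Rps12, Rpl13a and Rpl4, which encode ribosomal proteins, and Gnb2l1. Without the F266A line, which was tried after seeing the data, Snord73a, Snord100, Snord33, Snord34, Snord49a and Snord16a no longer passed, with adjusted p from 0.0603 to 0.199 by limma. Of the 16 genes called with all 3 lines in the fit, 9 were kept, and 3 were gained, with Snord12 (0.66 ± 0.21) and Snord88a (0.78 ± 0.28) higher and Snord45c lower (-0.72 ± 0.20 SE).

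Snord38a was the 1 gene that fell (-0.68 ± 0.27 SE, adjusted p = 0.0493 by limma). It was at 0.847 to 1.20 RPKM in the inputs and at 0, 0, 0, 0.171, 0.483 and 1.75 RPKM in the IPs, so that the empty vector IP2 was above every input, and the mean was 1.23 reads. This call was lost in 13 of 16 alternatives, with any input left out, with any IP but the empty vector IP2 left out and without the F266A line among them, at adjusted p from 0.0551 to 0.176 by limma. In all, 8 of the 46 had all 6 IPs above all 3 inputs, where 42.2% of all tested genes did, and 0 had all IPs below all inputs.

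Snord17, the longest of the 66 with a known length and the most deeply read with a mean of 56.0 reads, did not pass the test. It was at 8.20, 7.78 and 7.47 RPKM in the WT, F266A and empty vector inputs, and at 8.38 and 8.77 RPKM, 12.3 and 7.91 RPKM, and 7.97 and 11.3 RPKM in the IPs. The fractions overlapped, with a log2 difference of 0.23 ± 0.14 (SE, adjusted p = 0.165 by limma), below the 0.30 of the median gene. Snord2 (0.45 ± 0.22), Snord89 (0.48 ± 0.27) and Snord32a (0.41 ± 0.27) did not pass either, and Snord52 had the value -0.54 ± 0.32 (SE).

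Snord2, which overlaps an exon of the translation factor gene Eif4a2, was at 7.32 RPKM in the WT input and 6.77 and 5.195 RPKM in the WT IPs, at 3.55 RPKM in the F266A input and 9.84 and 5.79 RPKM in its IPs, and at 4.56 RPKM in the empty vector input and 9.14 and 6.95 RPKM in its IPs. The WT input was the highest input and lay above both WT IPs. Snord89 was at 4.44, 3.69 and 2.69 RPKM in the WT, F266A and empty vector inputs, and at 8.90 and 3.71 RPKM, 8.54 and 5.30 RPKM, and 6.02 and 2.34 RPKM in the IPs. In each line its IP1 was above its IP2, and the IP2 of WT and of the empty vector line lay below their inputs. Snord52 was at 2.76 to 3.62 RPKM in the inputs and 0.407 to 3.89 RPKM in the IPs, highest in the F266A IP2 and lowest in the empty vector IP2.

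The ribosomal protein gene Rpl13a hosts Snord32a, Snord33, Snord34 and Snord35a, 4 of the genes described. Snord33 was at 1.82, 0.668 and 0.851 RPKM in the WT, F266A and empty vector inputs, and at 2.17 and 4.61 RPKM, 3.21 and 1.59 RPKM, and 1.66 and 1.40 RPKM in the IPs. Each IP was above its own line's input, though the fractions overlapped. Snord34 had both WT IPs (1.09 and 0.716 RPKM) below the WT input (1.18 RPKM), and both empty vector IPs (1.75 and 1.91 RPKM) above theirs (0.0573 RPKM). Mean levels were 3.14, 1.998, 0.982 and 0.276 RPKM for Snord32a, Snord33, Snord34 and Snord35a, against 161 RPKM for Rpl13a.

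**Figure D2:**
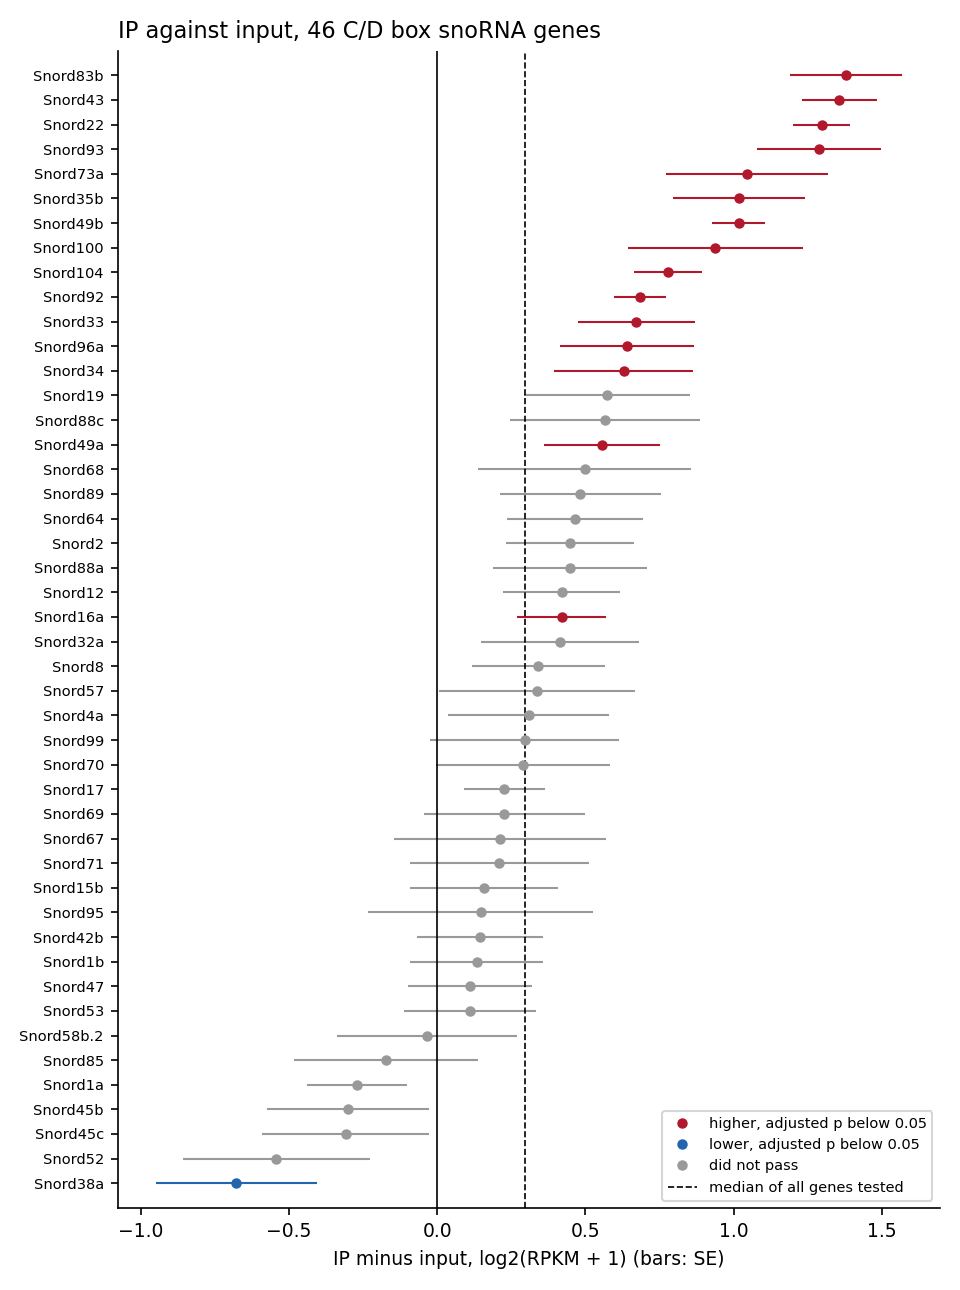
Log2 difference between IP and input for the 46 C/D box snoRNA genes tested, with SE bars. Red genes passed as higher, the blue gene as lower and grey genes did not pass, the dashed line is the median of all genes tested (0.30), and Snord58b.2 is a second row for Snord58b. Snord83b, Snord43 and Snord22 lie highest, at 1.38, 1.36 and 1.30.

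Each line was then taken alone, the empty vector line, which held no tagged WDR5, included. Both IPs were above their own input for 24 of the 46 genes in WT, 28 in F266A and 22 in the empty vector line, where this held for 79.7%, 87% and 83% of all genes tested. Only 17 of the 46 had a mean of at least 3 reads, so for most of them the direction rests on few reads. Within lines, 1 of the 46 was called higher in WT (Snord22), 10 in F266A and 4 in the empty vector line (Snord22, Snord43, Snord34 and Snord49a), where 0.174%, 19.3% and 0.613% of all genes were. With the libraries centred on their medians or quantile normalized, none of the 46 was called in any line by limma, with 10, 8 and 15 at an unadjusted p under 0.05 after centring, and of all genes 1 was called in WT and 0 in the other lines. The median log2 difference of the 46 was 0.33 in WT, 0.51 in F266A and 0.35 in the empty vector line, and that of all genes was 0.27, 0.37 and 0.27. These 3 comparisons each rest on 1 input library. H/ACA box snoRNA and Cajal body RNA genes had a median log2 difference of 0.55 over all lines, with 21 of 37 called higher, and microRNA genes had 0.17, with 37 of 220.

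The design then asks whether enrichment over the line's own input differed between lines. No C/D box snoRNA gene did so in any of the 3 comparisons by limma, and neither did any other gene tested. The share of all genes called was 0% for WT against F266A, 0% for WT against empty vector and 0% for F266A against empty vector. Among the 46, 6, 7 and 8 genes had an unadjusted p under 0.05, as did 259, 173 and 243 of all 9787. Replicate IPs of these genes lay far apart, with a median gap in log2(RPKM + 1) of 0.51 in WT, 0.53 in F266A and 0.71 in the empty vector line, where all genes had 0.15, 0.16 and 0.10.

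The values of the leading genes show the size of these differences. For Snord22 the enrichment was 1.24 in WT, 1.61 in F266A and 1.04 in the empty vector line, on the log2 scale. WT minus F266A was -0.36 ± 0.18 and WT minus empty vector was 0.20 ± 0.18 (SE). For Snord83b, the gene with the largest rise, WT minus F266A was 0.83 ± 0.42 and WT minus empty vector 0.68 ± 0.42 (SE), with unadjusted p = 0.0838 and 0.144 by limma.

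Snord32a and Snord49a had the lowest unadjusted p of the 46 in WT against F266A and, together with Snord34, in WT against empty vector, with the lower enrichment in WT. Snord32a was at 5.40 RPKM in the WT input and 3.88 and 2.69 RPKM in the WT IPs, at 0.583 RPKM in the F266A input and 2.84 and 3.02 RPKM in its IPs, and at 2.32 RPKM in the empty vector input and 4.21 and 3.36 RPKM in its IPs. The 6 IPs overlapped between the lines, whereas the inputs were spread from 0.583 to 5.40 RPKM, with 1 library for each. The enrichment of WT minus F266A was -1.91 ± 0.27 (SE, unadjusted p = 0.000107, adjusted p = 0.9998 by limma).

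**Figure D3:**
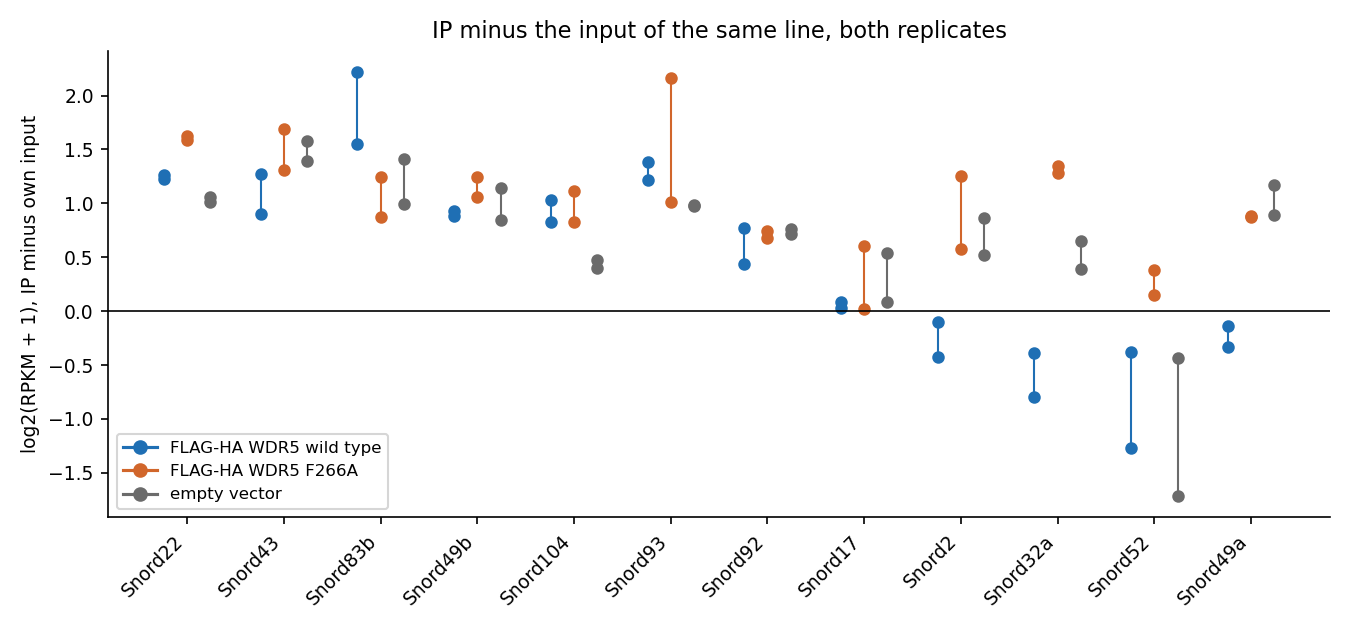
IP minus the input of the same line, in log2(RPKM + 1), for 12 C/D box snoRNA genes. Each point is 1 IP and a line joins both replicates. For the first 7 genes all 6 IPs are above their input in all 3 lines, and for Snord2, Snord32a and Snord49a both WT values lie below 0 and the others above.

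A rule without a test was also applied, in which the lower WT enrichment had to be above 0 and above all 4 values of the other lines. It was met by 6 of the 90 C/D box snoRNA genes and 5.66% of all genes above 0. With F266A in the place of WT it was met by 6 of the 90 and 16% of all genes, and with the empty vector line in that place by 4 of the 90 and 4.67% of all genes. The 6 genes under WT were Snord83b, Snord15b, Snord88a, Snord11, Snord87 and Snord91a, and all but Snord83b and Snord15b had a mean of at most 1.30 reads. Snord15b passed by a margin of 0.0073 and Snord83b by 0.14 on the log2 scale. Under F266A the genes were Snord22, Snord32a, Snord42a, Snord45c, Snord52 and Snord73a, and under the empty vector Snord12, Snord19, Snord34 and Snord49a.

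When IPs were compared directly, without their inputs, few C/D box snoRNA genes passed. WT IPs against F266A IPs gave 2 of 46, against 1.16% of all genes, with Snord22 higher (0.70 ± 0.10 SE, adjusted p = 0.0319 by limma) and Snord49a lower (-0.87 ± 0.13 SE, adjusted p = 0.034 by limma). Both calls were lost without WT IP1, WT IP2, F266A IP2, empty vector IP1 or empty vector IP2, and 1 was left without F266A IP1. The 2.41 and 0.627 RPKM of Snord22 in the WT and F266A inputs stood in the same order as the IPs. WT IPs against empty vector IPs gave 0 of 46 C/D box snoRNA genes and 0% of all genes by limma, with 7 and 557 at an unadjusted p under 0.05.

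F266A IPs against empty vector IPs gave 3 of 46, against 4.55% of all genes. Snord1a was higher (1.15 ± 0.23 SE, adjusted p = 0.0392 by limma), with 1.99 and 0.994 RPKM in the F266A IPs against 0 and 0.205 RPKM in the empty vector IPs. Snord92 was higher as well (0.74 ± 0.14 SE, adjusted p = 0.0368 by limma), with 2.49 and 2.66 RPKM against 1.18 and 1.11 RPKM. Snord22 was lower (-0.67 ± 0.10 SE, adjusted p = 0.0192 by limma). No call was left without empty vector IP1 or IP2, and 1 without F266A IP1. In the inputs Snord1a stood at 1.54 RPKM in F266A and 0.738 RPKM in the empty vector line, and Snord92 at 1.19 and 0.288 RPKM, in the same direction as the IPs. These comparisons share their IPs with each other, so they are not independent.

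Host genes give the context in which these RNAs were counted. A host on the same strand was found for 51 of the 56 placed genes, of which 44 lie in protein-coding hosts and 7 in noncoding ones, and 31 had no base in an annotated host exon. In none of the 50 pairs whose host was in the table did the mean RPKM of the snoRNA over the 9 libraries reach that of its host, and the median ratio of these means was 2.36%. In single libraries the snoRNA was above its host in 1 of 450 values, Snord1a in the F266A input, at 1.54 RPKM against 1.29 RPKM for 1810032O08Rik. Where a snoRNA overlaps a host exon, reads of both cannot be told apart. Where it lies in a host intron, its reads cannot be told from those of unspliced host RNA.

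Of the 35 pairs in which both genes were tested, the snoRNA had the larger difference between IP and input in 12. This count holds for log2(RPKM + 1), which understates changes of low genes, and the snoRNAs were lower than their hosts. On plain RPKM the order in a pair can differ. The median log2 difference was 0.34 for the snoRNAs and 0.50 over their 26 hosts, each host counted once, and across the pairs, which share libraries and in part hosts, the correlation was r = 0.22. Snord83b stood apart from Rpl3, with 1.38 ± 0.19 for the snoRNA and 0.27 ± 0.09 for the host (SE). Rpl3 was at 107, 81.6 and 116.2 RPKM in the WT, F266A and empty vector inputs, and at 125 and 142 RPKM, 81.9 and 106 RPKM, and 148 and 138 RPKM in the IPs. Snord22 and Snhg1 moved by like amounts (1.30 ± 0.10 and 1.15 ± 0.11 SE), but Snord22 lies wholly in an annotated Snhg1 exon and shares its reads. Snord49b, which lies in an intron, moved by 1.02 ± 0.09 where its host moved by 0.74 ± 0.09 (SE). Snord17 stood on the other side, at 0.23 ± 0.14 where its host Snx5, a sorting nexin, moved by 0.65 ± 0.15 (SE).

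**Figure D4:**
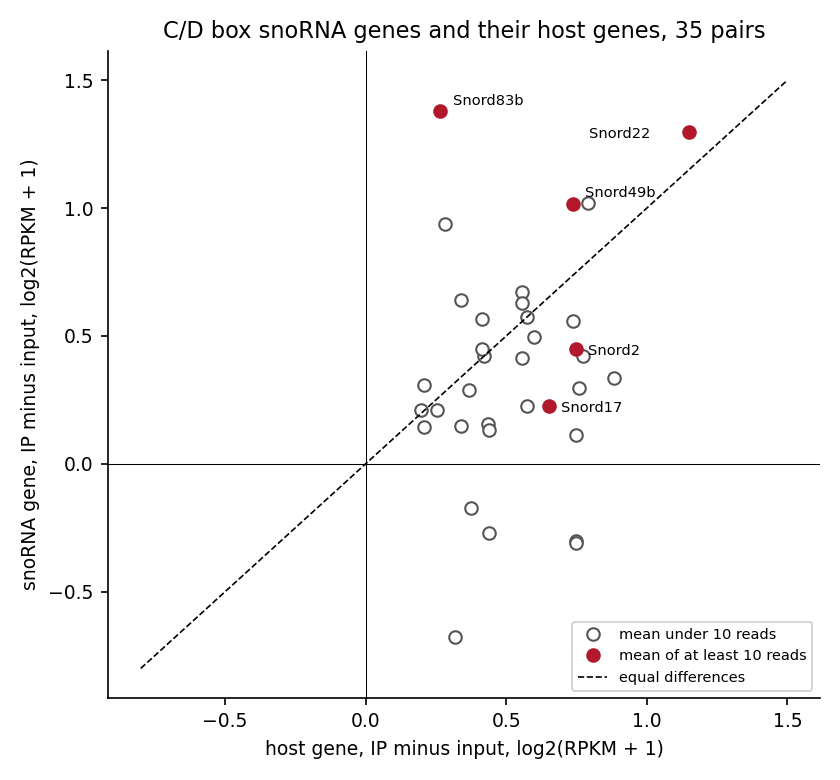
Log2 difference between IP and input of the host gene (horizontal) and of the snoRNA gene (vertical) for 35 pairs, each point a pair. Filled points are snoRNA genes with a mean of at least 10 reads and the dashed line marks equal differences. Snord83b lies far above the line at 1.38 against 0.27, and 12 of the 35 pairs lie above it. Both axes use log2(RPKM + 1), which understates changes of the snoRNA genes, the lower of each pair.

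Noncoding snoRNA host genes, listed with earlier results of these data known, were set beside them. All 7 of Gas5, Snhg1, Snhg3, Snhg5, Snhg6, Snhg8 and Snhg12 were called higher, as were 63.8% of all genes, with log2 differences from 0.66 to 1.30 where the median of all genes was 0.30. Snhg1 was at 30.4, 20.5 and 28.7 RPKM in the WT, F266A and empty vector inputs and at 49.9 to 79.5 RPKM in the IPs, highest in the empty vector IP1. Snhg5 varied most, from 12.3 to 35.1 RPKM in the inputs and from 23.2 to 88.8 RPKM in the IPs, which overlapped.

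The mRNAs of the proteins that bind C/D box snoRNAs were also higher in the IPs. All 4 core protein genes in the table passed, with Nop56 at 0.88 ± 0.09, Nhp2l1 at 0.51 ± 0.12, Nop58 at 0.37 ± 0.11 and the methyltransferase gene Fbl at 0.36 ± 0.08 (SE, log2 difference). Nop56, which itself hosts Snord57 and Snord110, was at 45.5 to 47.8 RPKM in the inputs and at 74.2 to 99.0 RPKM in the IPs, with no overlap. Of 7 genes for assembly factors, 6 passed as higher, among them the ATPase genes Ruvbl1 (0.37 ± 0.08) and Ruvbl2 (0.53 ± 0.07), and Pih1d1 did not (0.08 ± 0.09 SE). Against the 63.8% of all genes called higher and their median of 0.30, these counts do not set the lists apart.

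Wdr5 itself, the targeted protein's own gene, was at 9.54 RPKM in the WT input, 5.85 RPKM in the F266A input and 8.05 RPKM in the empty vector input. Its IPs were at 12.9 and 11.8 RPKM in WT, 8.79 and 8.18 RPKM in F266A and 9.34 and 10.5 RPKM in the empty vector line. WT was the highest in both fractions and F266A the lowest in both. The table has 1 row for mouse Wdr5, and how far reads of the tagged human constructs fall on it is not given in the sources used here.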

How the data were processed

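Per the labels and the study's methods, RNA was amplified with the NuGEN Ovation v2 kit and reads were mapped to mm9 with TopHat 1.1.3, and the authors deposited RPKM per RefSeq gene symbol, calculated with their own script. Whether counting used strand is not given in the sources used here. Deposited RPKM are not counts, so no count test was run. RPKM times gene length fell on whole multiples of a covered-base step for 95.2% to 97.4% of checked values per library (tolerance 0.03 steps), with 52 steps per read, which gave the depths. Reads are estimates, and counting error alone is covered.

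The tests were made in R 4.3.3 with limma 3.58.1 (eBayes with trend, Benjamini-Hochberg over 9787 genes) on log2(RPKM + 1) of genes reaching an RPKM of 1 in 2 or more libraries, a scale that understates changes of low genes. IP against input used line plus fraction over all 9 libraries, and the other comparisons 1 coefficient per line and fraction. The procedure was tested on simulated data with the spread of the tested genes. At a log2 change of 1, IP against input recovered 100 of 100 changed genes and WT against F266A enrichment 47 of 100. At a log2 change of 2 both recovered 100 of 100. The changed genes were drawn from all genes, whose replicate gaps are smaller than those of C/D box snoRNA genes. Summaries used Python 3.11.15, with genes placed by GENCODE M1 and lengths from RefSeq (GRCm38.p6, names and lengths only). Of the 66 genes with a RefSeq length, those without a GENCODE M1 entry were named only. Named genes were the 12 with the highest mean RPKM, up to 10 called per comparison, those meeting the rule, and listed genes and hosts. The genes and lists were chosen with earlier results of these data known. Alternatives covered pseudocount, filter, scaling, trend, block and left-out libraries.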

Additional observations from a re-analysis of the deposited data

Results flagged for a closer look

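In 11 of the 46 C/D box snoRNA genes tested, both IPs of a line were above their input while both IPs of another line were below theirs, and this was seen in 7.46% of all genes tested. These differences between lines were not tested on their own beyond the limma comparisons, which called no gene, and each rests on 1 input per line. The gaps between replicates of these genes, given above, are wider than those of all genes.

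For WT minus F266A the mean enrichment differed, on the log2 scale, by -1.18 in Snord2, -1.91 in Snord32a, -1.08 in Snord52, -1.11 in Snord49a, -0.88 in Snord34, -1.19 in Snord69, -0.97 in Snord45c and 1.51 in Snord88a. For WT minus empty vector it differed by -0.95 in Snord2, -1.12 in Snord32a, -1.26 in Snord49a, -1.62 in Snord34, 1.47 in Snord15b and 1.76 in the second Snord58b row. For F266A minus empty vector it differed by 1.34 in Snord52, 1.13 in Snord15b, -0.94 in Snord57 and 1.52 in Snord45c. The WT line had the value below 0 in 7 of the 8 genes flagged against F266A. These 8 were picked for their opposite signs and share the same WT and F266A inputs. WT minus F266A was above 0 in 3098 of all 9787 genes tested and in 17 of the 46, so most genes leaned the same way. Of the 8, Snord2 was the most deeply read, at a mean of 12.7 reads, and Snord88a among the least, at 1.30 reads.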

How the results depend on the processing

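For IP against input, 16 C/D box snoRNA genes passed, 15 of them higher. The count was 7 with median centring and 6 with quantile normalization (Snord104 was lost, adjusted p = 0.0624 by limma). Quantile normalization called 248 of all 9787 genes higher and 368 lower. The count was 9 with no filter, and 4 where an RPKM of 10 was required in 2 or more libraries, which left 5 genes to test. It was 10 of 17 over genes with a mean of at least 3 reads and 12 without the F266A line (9 of the 16 and 3 others), both chosen after seeing the data. Leaving out 1 library in turn gave 9 to 18, with 9 lacking the F266A input. Snord22, Snord43, Snord83b, Snord49b, Snord92 and Snord93 passed under every alternative in which they were tested. With no filter, WT against F266A enrichment gave 15 genes and WT against empty vector 16, of which 15 in each were Snord116 copies that share values and are at 0 in most libraries, and F266A against empty vector gave 1. Leaving out an IP gave 0 in all 3 of these. For WT IP against F266A IP the count of 2 became 0 with no filter and with the minimum of 10 RPKM, and ran from 0 to 1 when an IP was left out. For F266A IP against empty vector IP the count of 3 became 0 under both of those filters and 5 without the trend, and ran from 0 to 4 when an IP was left out. The genes called in these 2 comparisons were not tested at all with the minimum of 10 RPKM, since Snord22, the highest of them, reached at most 7.19 RPKM. Their loss there was thus fixed in advance. Snord genes meeting the rule numbered 6, and 11 with a pseudocount of 0.1, 3 when restricted to the genes tested, and 11 and 14 without the first or second WT IP. With the replicate number as a block, F266A IP against empty vector IP gave 6, WT IP against empty vector IP gave 1 (Snord49a) and IP against input gave 17, and the enrichment comparisons gave 0. Over all 9787 genes the block gave 174 higher and 433 lower for F266A IP against empty vector IP. It gave 0 higher and 7 lower for WT IP against empty vector IP, and 6493 higher and 57 lower for IP against input. The deviations of same-numbered IPs correlated at 0.258, 0.112 and 0.0116 across genes for the pairs of lines, so the numbers were not taken to pair the samples. No called difference changed sign under any alternative. Depth limits most genes, since 49 of 66 had a mean under 3 reads, and a p that misses the threshold does not show equal levels.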
